A study of Rattus norvegicus with 6 samples.

Results

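The genes described here are 8 genes that mark retinal ganglion cell neurons (RGCs): Thy1, Rbpms, Sncg, Isl1, Pou4f1, Nefl, Nefm and Nefh. They were taken by name, and every probe set of the array whose annotation carries exactly 1 of these symbols was used, without regard to its measured value. All 8 genes had such a probe set, and together they had 13 of the 31042 probe sets on the array. Thy1, Nefl and Isl1 had 2 each, Rbpms had 3, and Sncg, Pou4f1, Nefm and Nefh had 1. A probe set here means several short probes that together read out 1 transcript. The arrays were Affymetrix arrays of the rat genome, and RGCs of postnatal day 6 rats were kept 12 days in culture with the growth factors BDNF and CNTF before treatment. The Gpc4 group (2 arrays) then received soluble glypican 4, a heparan sulfate proteoglycan that astrocytes secrete, for 12 hours. The TSP1 group (2 arrays) received thrombospondin 1, another synapse-inducing protein of astrocytes, for 12 hours, and the Alone group (2 arrays) received no protein. Replicates 1 and 2 of each group came from separate RGC cultures according to the methods, each array carried RNA of pooled wells, and no group was given a control protein made in the way that Gpc4 was.

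RGCs are the output neurons of the retina, and their long axons form the optic nerve. Isl1 encodes a LIM-homeodomain transcription factor and Pou4f1 (also called Brn3a) a POU-homeodomain transcription factor, and both act in RGC differentiation. Rbpms encodes an RNA-binding protein that in the adult retina labels nearly all RGCs, and Sncg encodes gamma-synuclein, a small cytosolic protein abundant in RGCs and their axons. Nefl, Nefm and Nefh encode the light, medium and heavy subunits of neurofilaments, the intermediate filaments that fill large axons and set their caliber. Thy1 encodes a glycosylphosphatidylinositol-anchored protein of the cell surface. In rat retina it is the antigen of the T11D7 antibody on which these RGCs were captured, so its presence on the arrays follows from how the cells were chosen. Thy1 is also made by fibroblasts, and Isl1 by some amacrine and bipolar cells.

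The 300 bases around the gene start were given in the RefSeq promoter table (build GRCr8) for 3 of the 8 genes, matched by gene identifier: Sncg, Isl1 and Pou4f1. They are printed to set the axonal gene with the brightest probe set beside the genes of both transcription factors, and capitals mark the only matches to any of 3 promoter motifs searched on both strands. These were the TATA box (TATAAA), the GC box (GGGCGG) and the CCAAT box (CCAAT).
Sncg, chr16:9711287-9711586, minus strand: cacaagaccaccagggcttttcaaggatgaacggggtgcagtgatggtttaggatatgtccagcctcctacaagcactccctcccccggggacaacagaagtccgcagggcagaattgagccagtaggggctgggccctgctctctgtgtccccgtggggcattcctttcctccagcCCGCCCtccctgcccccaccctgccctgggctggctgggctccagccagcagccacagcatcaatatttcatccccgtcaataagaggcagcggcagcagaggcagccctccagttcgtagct
Isl1, chr2:49823393-49823692, minus strand: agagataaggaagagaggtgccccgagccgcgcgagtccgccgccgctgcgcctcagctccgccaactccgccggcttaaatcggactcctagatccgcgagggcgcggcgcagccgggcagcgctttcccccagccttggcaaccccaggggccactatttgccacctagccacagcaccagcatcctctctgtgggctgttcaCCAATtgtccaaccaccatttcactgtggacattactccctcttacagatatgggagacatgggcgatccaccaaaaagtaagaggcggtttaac
Pou4f1, chr15:87674594-87674893, minus strand: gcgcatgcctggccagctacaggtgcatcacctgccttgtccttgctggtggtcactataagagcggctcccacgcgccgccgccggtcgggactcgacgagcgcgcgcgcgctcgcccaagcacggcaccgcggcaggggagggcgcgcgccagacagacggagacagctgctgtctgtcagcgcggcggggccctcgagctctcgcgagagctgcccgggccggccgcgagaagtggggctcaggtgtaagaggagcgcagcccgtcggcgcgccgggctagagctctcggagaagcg
The Sncg window held 1 GC box (read on the opposite strand), the Isl1 window held 1 CCAAT box, and the Pou4f1 window held no match. Of 33469 promoter windows of this length in the table, 14.2% held the TATA box, 33.1% the GC box and 37.5% the CCAAT box. The Pou4f1 window was the richest of the 3 in G and C, at 72.3% with 41 CpG dinucleotides, against 61.7% and 8 CpG for Sncg and 60.3% and 21 CpG for Isl1. The arrays measured mRNA only, and no array value bears on these windows directly.

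All 8 genes gave a bright signal on every array. Values are log2 RMA expression as deposited, and array medians were 5.96 to 5.99. Detection calls were not used here, so a value below these medians is not shown to be above background. For 11 of the 13 probe sets the value exceeded the array median on all 6 arrays, as it did for 47.7% of all probe sets. Each of the 8 genes had at least 1 such probe set, where 63.8% of the 14217 genes on the array did so on their brightest one. The other 2, a second probe set of Isl1 and another of Rbpms, lay below the median on all 6 arrays. Binding strength varies between probe sets, so the values rank neither the mRNAs of different genes nor those of 1 gene. Since whole cultures were measured, fewer RGCs and less RNA per RGC cannot be told apart.

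**Figure D1:**
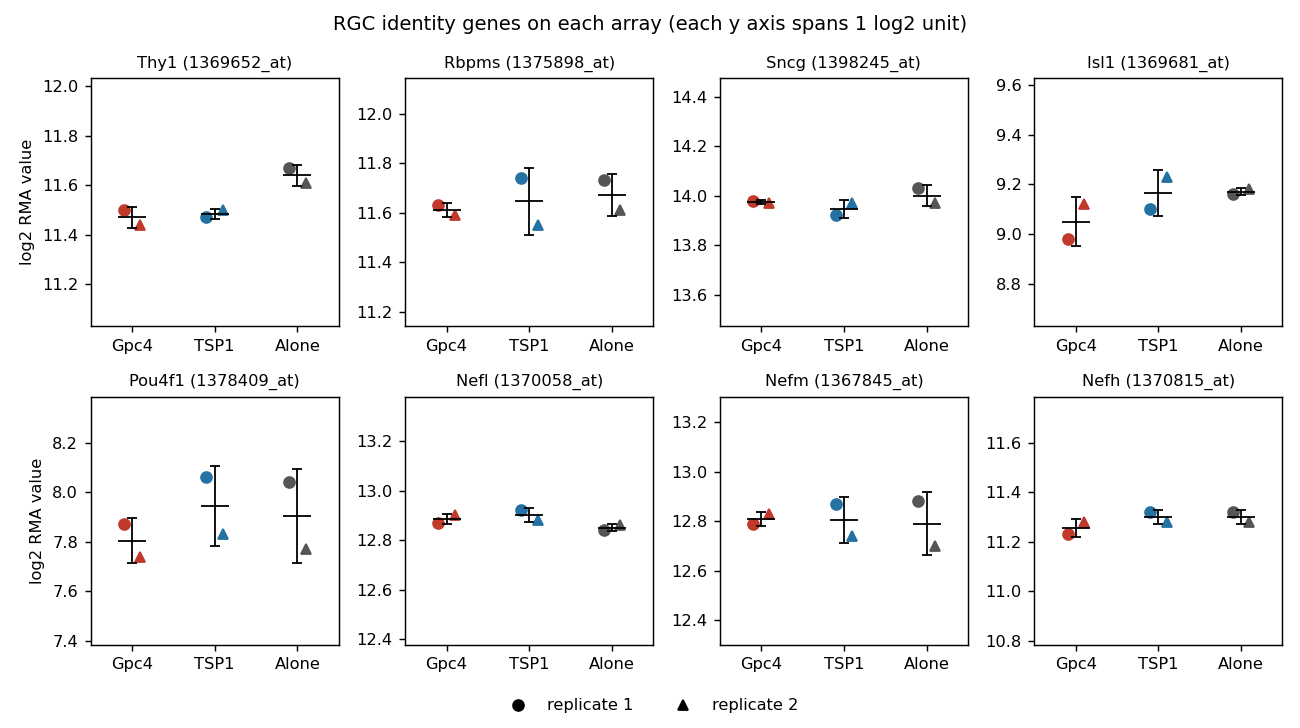
Log2 value (y axis, spanning 1 log2 unit in each panel) of the brightest probe set of each of the 8 genes on every array, by group (x axis). Circles are replicate 1, triangles replicate 2, and lines and bars the mean and SD (n = 2 per group); the panel for Sncg keeps all arrays between 13.92 and 14.03, and that for Pou4f1 has replicate 2 below replicate 1 in each group.

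Thy1, the antigen used for capture, was read by 2 probe sets that leaned in opposite directions. Its brightest probe set (1369652_at) had log2 values of 11.50 and 11.44 with Gpc4, 11.47 and 11.50 with TSP1, and 11.67 and 11.61 in Alone. Both treated groups therefore lay below Alone with no overlap, and the log2 difference was -0.17 for Gpc4 (95% interval -0.37 to 0.03) and -0.16 for TSP1 (-0.35 to 0.04). The other probe set (1369651_at) had log2 values of 10.01 and 10.34 with Gpc4, 9.91 and 10.18 with TSP1, and 9.99 and 9.93 in Alone. Here both Gpc4 arrays lay above Alone, by 0.02 in culture 1 and 0.41 in culture 2, and the log2 difference was 0.22 (95% interval -0.10 to 0.53). With TSP1 this probe set was 0.25 higher than Alone in culture 2 and 0.08 lower in culture 1. Its range over the 6 arrays, 0.43, was the widest of the 13. None of these differences passed the test, as given below.

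Rbpms gave similar values in the 3 groups on each of its probe sets. Its brightest probe set (1375898_at) had log2 values of 11.63 and 11.59 with Gpc4, 11.74 and 11.55 with TSP1, and 11.73 and 11.61 in Alone, and the 3 groups overlapped. A further probe set (1372380_at) had log2 values of 9.41 and 9.48 with Gpc4, 9.52 and 9.35 with TSP1, and 9.57 and 9.35 in Alone, again with overlap. The remaining one (1380498_at) stood between 4.20 and 4.50 on all arrays, below the array medians. Log2 differences from Alone lay between -0.08 and -0.02 for the 3 probe sets with Gpc4 and within the same limits with TSP1.

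Sncg was among the steadiest of the 8. Its log2 values were 13.98 and 13.97 with Gpc4, 13.92 and 13.97 with TSP1, and 14.03 and 13.97 in Alone. The 6 values spanned 0.11, a linear ratio of 1.08 between the highest and the lowest array, and 3.33% of all probe sets had a smaller span. The log2 difference was -0.03 for Gpc4 (95% interval -0.22 to 0.17) and -0.06 for TSP1 (-0.25 to 0.14).

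Of the transcription factor genes, Isl1 differed less than Pou4f1 between TSP1 and Alone, on the brightest probe set of each. Its brightest probe set (1369681_at) had log2 values of 8.98 and 9.12 with Gpc4, 9.10 and 9.23 with TSP1, and 9.16 and 9.18 in Alone. Both Gpc4 values lay below both Alone values, with a log2 difference of -0.12 (95% interval -0.34 to 0.10), while the TSP1 values fell on either side of Alone, with a difference of -0.01 (-0.23 to 0.22). The dim Isl1 probe set (1396895_at) stood between 3.64 and 3.79 on all arrays, with log2 differences of 0.075 for Gpc4 and 0.105 for TSP1. Pou4f1 had log2 values of 7.87 and 7.74 with Gpc4, 8.06 and 7.83 with TSP1, and 8.04 and 7.77 in Alone. The groups overlapped, and in each of them replicate 2 was below replicate 1. The log2 difference was -0.10 for Gpc4 (95% interval -0.40 to 0.20) and 0.04 for TSP1 (-0.26 to 0.34). These intervals were wider than those of Isl1 in the main fit, which has no term for the culture. With such a term the Gpc4 interval was -0.31 to 0.11 for Pou4f1 and -0.32 to 0.08 for Isl1 (1369681_at).

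The neurofilament subunit genes were steady across groups. Nefl, whose protein forms the core of the filament, had log2 values of 12.87 and 12.90 with Gpc4, 12.92 and 12.88 with TSP1, and 12.84 and 12.86 in Alone on its brightest probe set (1370058_at). Its span of 0.08 was the smallest of the 13, with 1.15% of all probe sets below it. The second Nefl probe set (1370059_at) varied more, with log2 values of 12.25 and 12.44 with Gpc4, 12.33 and 12.36 with TSP1, and 12.29 and 12.17 in Alone. It gave a log2 difference of 0.12 for both Gpc4 and TSP1 (95% interval -0.12 to 0.35 for each). Nefm, which follows Nefl directly among protein-coding genes in the RefSeq table, had log2 values of 12.79 and 12.83 with Gpc4, 12.87 and 12.74 with TSP1, and 12.88 and 12.70 in Alone, with a difference of 0.02 for both treatments after rounding. Nefh, which carries a long phosphorylated tail, had log2 values of 11.23 and 11.28 with Gpc4, 11.32 and 11.28 with TSP1, and 11.32 and 11.28 in Alone. The TSP1 and Alone values of Nefh were equal to 2 decimals on same-numbered arrays, and its log2 difference was -0.05 for Gpc4 (95% interval -0.24 to 0.15).

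Treatment with Gpc4 raised or lowered none of the 8 genes detectably. In limma, a linear model that pools the spread over all probe sets, 0 of the 13 probe sets passed an adjusted p of 0.05 for Gpc4 against Alone, with the lowest adjusted p at 0.76 (Thy1, 1369652_at). Of all 31042 probe sets 0.0838% passed in this comparison, so a count of 0 among 13 is what the background share gives and says little by itself. The intervals say more. These 95% intervals, each taken alone, came from the fit with no culture term. Over the 13 probe sets they ran from a fall of 1.32-fold (Pou4f1) to a rise of 1.45-fold (Thy1, 1369651_at), and none reached 2-fold. Log2 differences were above 0 for 5 probe sets and below 0 for 8, with a median of -0.03 against -0.01 over all probe sets, and a median size of 0.08 against 0.09. None of the 13 had an unadjusted p under 0.05 in limma, where 6.88% of all probe sets did, so 0 is near the background here too.

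TSP1 likewise changed none of the 8 genes detectably. For TSP1 against Alone 0 of the 13 probe sets passed (lowest adjusted p = 0.98 from limma), and 0% of all probe sets did, so this comparison made no call anywhere. At an unadjusted p under 0.05 there were 0 of the 13, against 4.4% of all probe sets (1367), again near the background. The 95% intervals ran from a fall of 1.28-fold (Thy1, 1369652_at) to a rise of 1.32-fold (Thy1, 1369651_at). Differences were above 0 for 6 probe sets, below 0 for 6 and at 0 for Nefh. Their median was 0 against -0.01 over all probe sets, and their median size 0.05 against 0.08. This comparison and that of Gpc4 share the same Alone arrays.

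Set directly against each other, Gpc4 and TSP1 did not differ detectably for any of the 8 genes. For Gpc4 against TSP1 0 of the 13 probe sets passed, where 0.0612% of all probe sets did, and the lowest adjusted p was 0.995 from limma. An unadjusted p under 0.05 was reached by 0 of the 13 and by 4.51% of all probe sets. The median size of the log2 difference was 0.03 for the 13 and 0.07 over all probe sets. The largest log2 differences were -0.14 for Pou4f1 (95% interval -0.44 to 0.16) and 0.13 for Thy1 on 1369651_at (-0.19 to 0.45). The intervals of all 13, again with no culture term, ran from a fall of 1.35-fold to a rise of 1.37-fold.

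**Figure D2:**
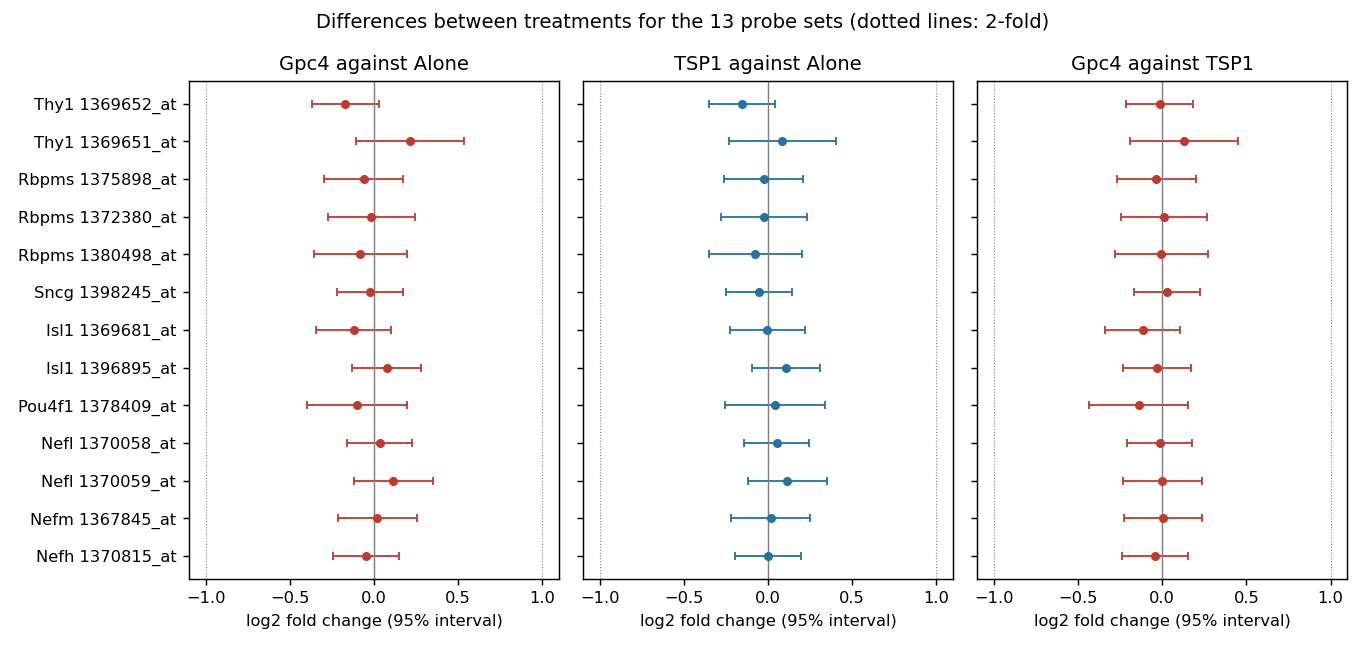
Log2 fold change (x axis) with its 95% interval from limma (bars) for the 13 probe sets of the 8 genes (y axis), in 3 panels: Gpc4 against Alone, then TSP1 against Alone, then both proteins against each other. Each interval includes 0 and none reaches the dotted lines at 2-fold. The widest in this fit, which has no culture term, belong to Thy1 (1369651_at) and Pou4f1.

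Between the cultures none of the 8 genes differed detectably either, although their fitted culture differences were not smaller than those of other genes. The median size of the log2 difference was 0.09 for the 13 probe sets and 0.07 over all probe sets, and Pou4f1 differed by more than 90.3% of probe sets did. With a mean per group and a term for the culture, 0 of the 13 probe sets passed for culture 2 against culture 1 (lowest adjusted p = 0.35 from limma, Pou4f1), and 0.561% of all probe sets did (174). Pou4f1 was the only one of the 13 probe sets with an unadjusted p under 0.05 (0.021 from limma), and 11.3% of all probe sets had one, so a count of 1 is at the background. It was lower in culture 2 in all 3 groups, by 0.13 with Gpc4, 0.23 with TSP1 and 0.27 in Alone, and the fitted log2 difference was -0.21 (95% interval -0.38 to -0.04, which is 0.77-fold to 0.97-fold). The brightest Rbpms probe set was also lower in culture 2 in each group, with log2 differences of -0.04 with Gpc4, -0.19 with TSP1 and -0.12 in Alone (fitted -0.12, 95% interval -0.29 to 0.05). For Isl1 (1369681_at) culture 2 was higher in each group, by 0.14 with Gpc4, 0.13 with TSP1 and 0.02 in Alone (fitted 0.10, 95% interval -0.07 to 0.26). Thy1 (1369651_at) was higher in culture 2 by 0.33 with Gpc4 and 0.27 with TSP1, and lower by 0.06 in Alone. For Sncg, Nefl (1370058_at) and Nefh the culture term was -0.01, 0.00 and -0.01 on the log2 scale. Replicate arrays of 1 group differed by a median of 0.06 (Gpc4), 0.13 (TSP1) and 0.06 (Alone) over the 13 probe sets, against 0.10, 0.11 and 0.11 over all probe sets. Within a group the differences were thus smaller for the 13 in Gpc4 and Alone, but not in TSP1. The span over the 6 arrays had a median of 0.22 over the 13 probe sets and 0.29 over all probe sets. Over the probe sets with a mean log2 value of at least 7 it was 0.25. None of the brightest probe sets of the 8 genes spanned 0.5, so no genes of like pattern were looked for.

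Genes of other lists did pass between the same cultures, where 0.561% of all probe sets did. Those named next were picked from 11 other lists because they passed. Vim, a filament gene of glia, fibroblasts and immature neurons, was higher in culture 2 by 0.80 on the log2 scale (adjusted p = 0.0047 from limma). So were Lum (1.79), Dcn (1.54) and Postn (0.71), 3 of 11 fibroblast and matrix markers measured, and Gad1 (0.61), an enzyme of GABA synthesis and 1 of 14 amacrine and horizontal cell markers. C1qa (-0.99), C1qb (-1.09) and Tyrobp (-0.95), 3 of 12 microglia and macrophage markers, were lower in culture 2, and so was Apoe (-1.03), a lipid carrier of glia and macrophages and 1 of 13 Müller glia and astrocyte markers. Of these, Lum, Dcn, C1qa, C1qb and Tyrobp lay below the array median on at least 1 array. The lists holding these marker genes were mixed. Their median log2 differences between the cultures were 0.57 (fibroblast), -0.055 (amacrine and horizontal), -0.37 (microglia) and -0.10 (Müller glia). Single members ran from -0.15 to 1.79, -0.39 to 0.61, -1.09 to 0.32 and -1.03 to 0.16, in the same order. Over the whole fibroblast list the mean log2 level was 6.92 in culture 2 against 6.40 in culture 1 with Gpc4, 6.75 against 6.08 with TSP1, and 7.13 against 6.29 in Alone. Over the microglia list it was 5.10 against 5.33 with Gpc4, 5.14 against 5.56 with TSP1, and 4.93 against 5.47 in Alone. The part of these cells in the Thy1 and Pou4f1 values was not tested. The calls between the cultures did not hold when any 1 of the 6 arrays was left out. Such a fit has only 2 pairs of arrays for the comparison, and the cause of the loss was not tested.

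**Figure D3:**
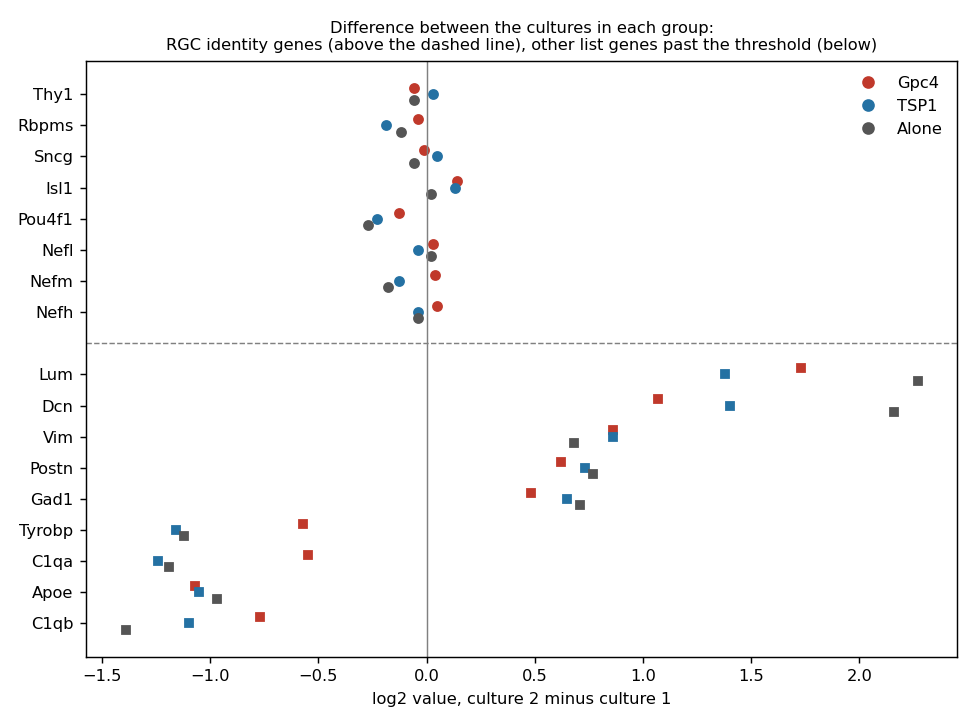
Log2 value of culture 2 minus culture 1 (x axis) within Gpc4, TSP1 and Alone for the brightest probe set of the 8 genes (circles, above the dashed line) and for the 9 other listed genes that passed between the cultures (squares, below it). The 8 genes stay within 0.27 of 0, while Lum and Dcn differ by over 1 in every group.

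Most further genes expressed in RGCs, not all of them particular to RGCs, were bright, read against the 63.8% of all genes given above. Of 14 measured transcription factor genes of RGCs, 13 were above the array median on all 6 arrays, and Tbr1 (mean log2 value 3.98), found in a minority of RGCs, was below. None passed in any of the 4 comparisons. Of all probe sets 0.0838% (Gpc4), 0% (TSP1), 0.0612% (Gpc4 against TSP1) and 0.561% (cultures) did. A count of 0 is near these shares and says little by itself. The median log2 difference of the 14 genes was -0.06 for Gpc4 and 0.01 for TSP1. Sox11 and Sox4, factors of immature neurons, had the largest Gpc4 differences among the brighter ones, -0.27 (95% interval -0.50 to -0.03) and -0.17 (-0.40 to 0.07), with adjusted p of 0.71 and 0.80 from limma. Of 22 other genes of RGCs and projection neurons, 19 were above the median on all arrays, among them Slc17a6, the vesicular glutamate transporter of RGCs, and Gap43, a growth cone protein. Chrnb3, Opn4 and Syt1 were below it. None of the 22 passed, again near the shares of all probe sets, and their median log2 difference was -0.02 for Gpc4. Among those averaging 7 or more on the log2 scale the largest was that of Nrn1, which encodes the neurite-promoting protein neuritin, with log2 values of 12.37 and 12.29 with Gpc4, 12.08 and 11.91 with TSP1, and 12.09 and 11.90 in Alone (difference from Alone 0.34, adjusted p = 0.64 from limma).

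The list of intermediate filaments and neurofilament partners had 17 measured genes, 16 of them above the median on all arrays. None passed with Gpc4 or TSP1, where 0.0838% and 0% of all probe sets did, and median log2 differences were -0.09 and -0.02. Ina and Prph, which encode alpha-internexin and peripherin and can join neurofilaments, had log2 differences of -0.12 and 0.06 with Gpc4. Dync1h1, the heavy chain of the motor dynein, and Ank3, which encodes ankyrin-G of the axon initial segment, had -0.32 and -0.29 with Gpc4 (adjusted p = 0.72 and 0.69 from limma). Both of these values were larger in size than any of the neurofilament genes, a difference that was not tested.

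Markers of other cells lay below the array median more often than genes in general. Of 86 measured markers in 8 lists, 50 (58.1%) were below it on all 6 arrays on their brightest probe set and 21 (24.4%) above, against 32.0% below and 63.8% above for all 14217 genes, a difference that was not tested. The lists differed widely. The photoreceptor list had 11 of 12 below, Rom1 being the exception, and the bipolar list 5 of 6, with Trpm1 above. The endothelial and pericyte list had 6 of 9 below and the oligodendrocyte list 6 of 9. Fibroblast and matrix markers were the main exception, with 6 of 11 above on all arrays (Col1a1, Col3a1, Postn, Fn1, Fbln1 and S100a4). Amacrine and horizontal cell markers had 5 of 14 above, of which Calb1 at 10.7 is also made by some RGCs. Of the Müller glia and astrocyte markers 3 of 13 were above (Glul, Slc1a3 and Apoe), while Gfap, Aldh1l1 and Rlbp1 were below. Of the microglia and macrophage markers 1 of 12 was above (Cx3cr1). No marker of the 8 lists passed in a treatment comparison without the replicate block. The shares of all probe sets there were 0.0838% (Gpc4), 0% (TSP1) and 0.0612% (Gpc4 against TSP1), so 0 is near the background. With the block, Postn passed for TSP1 against Alone (log2 difference 0.99, adjusted p = 0.040 from limma), and Lum (1.95), Dcn (1.77), Postn (-0.87) and Kdr (1.13) passed for Gpc4 against TSP1. For the comparisons with Alone the list medians lay between -0.12 and 0.09 for Gpc4 and between -0.13 and 0.10 for TSP1.

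**Figure D4:**
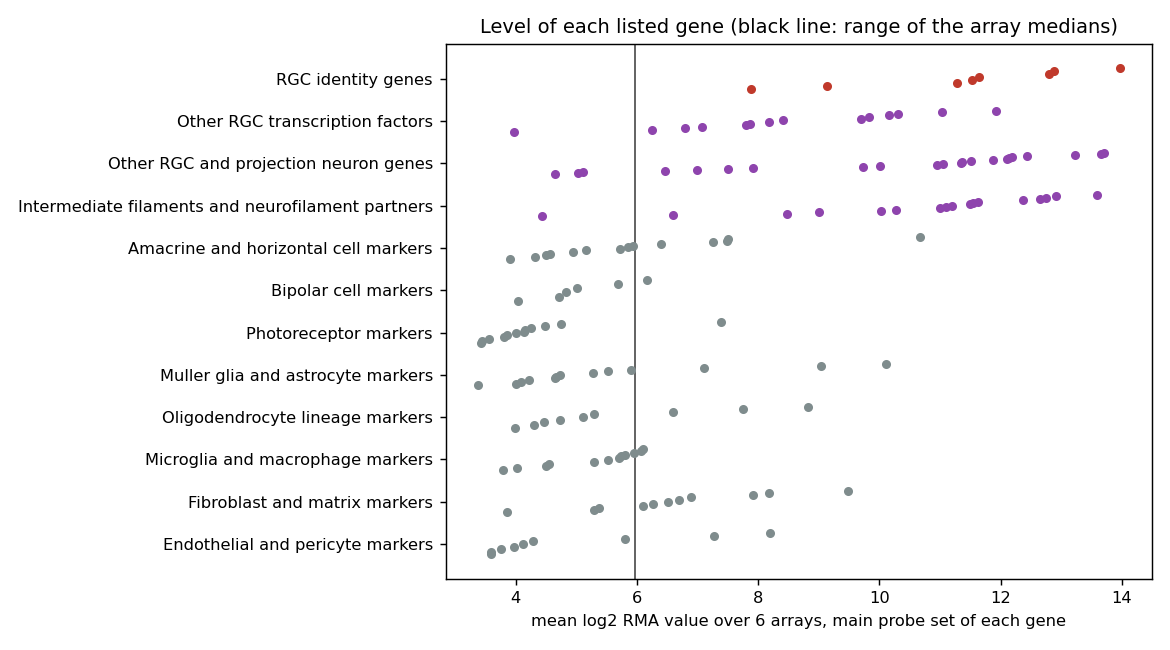
Mean log2 value over the 6 arrays (x axis) of the brightest probe set of each listed gene, 1 row of points per list (y axis; the 8 genes in red, other neuronal lists in purple, markers of other cells in grey). All 8 RGC identity genes lie to the right of the black line, which marks the array medians, and most photoreceptor, bipolar and endothelial markers to the left; distances between points do not compare mRNA amounts.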

How the data were processed

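Each of the 6 Affymetrix arrays (2 each for Gpc4, TSP1 and Alone) carried RNA of pooled wells, treated or untreated. According to the methods these wells came from 2 separate RGC cultures. The authors made the deposited log2 values with the RMA method of Expression Console, whose version is not stated in the sources read: background-corrected, normalized between arrays, summarised per probe set and rounded to 2 decimals, which blurs differences near that size. No further normalization or filter was applied. Groups were compared with limma 3.58.1 in R 4.3.3 (all 6 arrays, 1 mean per group, two-sided, Benjamini-Hochberg over 31042 probe sets, threshold 0.05), which left 3 residual degrees of freedom, and the cultures with a term for the replicate number added. The number of arrays limits the precision. In the main fit of the groups, p-values rest on the spread between the 2 replicates of a group. In the fit of the cultures, and with the replicate block, they rest on the spread left after the culture term. Limma also borrows spread from other probe sets, which gave 7.63 total degrees of freedom for the groups and 7.70 for the cultures.

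Gene symbols were taken from the annotation of the array design, in which 20826 probe sets had 1 symbol, 436 several and 9780 none. All 8 symbols matched the RefSeq table of GRCr8. For a gene with several probe sets the brightest on average stands for it. Named were all probe sets of the 8 genes, listed genes past the threshold, and the 2 members of each list with the largest difference among genes averaging 7 or more on the log2 scale. Genes of like pattern were to be named only for a gene spanning 0.5. Other genes were named as examples of a count after their values were seen. Members, lists and tests were chosen with earlier results of these data known. Pou4f2, Pou4f3, Atoh7, Ebf3 and the other listed genes without a single-symbol probe set were not analysed here.

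Same-numbered arrays of the 3 groups were taken to share a culture, which the methods do not spell out. Their departures from the group means had correlations of 0.29, 0.35 and 0.37 over probe sets, so the replicate block was fitted as an alternative. Others were median centring, quantile normalization, a minimum mean log2 value of 6, a trended variance, fitting the compared groups alone, the methods' t-test, averaging a gene's probe sets and leaving out each array. Plots were made in Python 3.11.15 (matplotlib 3.10.9).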

Additional observations from a re-analysis of the deposited data

Results flagged for a closer look

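Pou4f1 was flagged for 1 pattern: in both cultures its value was lower with Gpc4 than in Alone and higher with TSP1 than in Alone. The share of all probe sets with this pattern is not given here, so the pattern is only described. The log2 difference from Alone was -0.17 in culture 1 and -0.03 in culture 2 with Gpc4, and 0.02 and 0.06 with TSP1. The treatment differences thus differed by -0.14 on the log2 scale. When tested directly as Gpc4 against TSP1 this did not pass (95% interval -0.44 to 0.16, unadjusted p = 0.30 and adjusted p = 0.995 from limma), and with the replicate block the adjusted p was 0.88. Groups of 2 arrays are too small to look for single arrays that stand apart.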

How the results depend on the processing

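No probe set of the 8 genes passed in limma under any alternative run, in any of the 4 comparisons. With the replicate block the count stayed at 0 of 13 for Gpc4, TSP1 and their direct comparison, with lowest adjusted p of 0.59, 0.78 and 0.88. The methods' t-test made 1 call at an unadjusted p, Thy1 on 1369652_at for TSP1 against Alone (log2 difference -0.16), and 0 after Benjamini-Hochberg. Leaving out 1 array at a time left 0 calls, where a group with 1 array is assumed to vary like the others. Over those fits the log2 differences of the 13 probe sets lay between -0.26 and 0.38, and their sign changed in 44 of 312 values. Over the other alternatives they lay between -0.24 and 0.22, and the sign changed in 9 of 389 values. The brightest Thy1 probe set gave -0.17 for Gpc4, against 0.02 for the mean of both Thy1 probe sets. The count over all probe sets was less steady: for Gpc4 it was 26, but 64 with the replicate block, 90 with the block and a mean of at least 6, 49 with a trended variance, 13 with the compared groups alone and 2 to 13 without 1 array. For TSP1 it was 0, but 4 with the block, 8 with the block and a mean of at least 6, and 1 without Alone replicate 1. For Gpc4 against TSP1 it was 19, but 80 and 100 with the block, 39 with a trended variance, 31 at a mean of at least 6, and 2 to 13 without 1 array. The methods' t-test called 1704, 1280 and 1433 in the 3 treatment comparisons at an unadjusted p and 0 in each after Benjamini-Hochberg. Between the cultures it was 174, but 264 with a trended variance and 0 without any 1 array. The cause of these shifts was not tested. The fit of the cultures has no version without the replicate term.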

Other observations

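Among markers of other cells, Kdr, a VEGF receptor of endothelial cells, had mean log2 values of 7.93 with Gpc4, 6.80 with TSP1 and 7.10 in Alone. Gpc4 differed from Alone by 0.83 (adjusted p = 0.27 from limma), and blocking on the replicate gave 0.064. Gpc4 differed from TSP1 by 1.13 (adjusted p = 0.11 from limma), and blocking on the replicate gave 0.017. Of the 9 endothelial and pericyte markers measured, 6 lay below the array median on all arrays: Pecam1, Flt1, Tek, Cldn5, Vwf and Rgs5. Their log2 differences for Gpc4 against Alone were 0.22, 0.015, 0.075, -0.13, -0.035 and -0.05. Which cells gave the Kdr signal was not tested. Postn, a matrix protein of fibroblasts, had log2 values of 8.43 and 9.16 with TSP1 and 7.42 and 8.19 in Alone, a difference of 0.99 (adjusted p = 0.98 from limma, 0.040 after blocking on the replicate). Lum and Dcn encode small proteoglycans of the matrix. Lum had log2 values of 5.26 and 6.99 with Gpc4, 3.49 and 4.87 with TSP1, and 4.68 and 6.95 in Alone, and Dcn had 6.41 and 7.48 with Gpc4, 4.48 and 5.88 with TSP1, and 5.59 and 7.75 in Alone. For Gpc4 against TSP1 the log2 difference was 1.95 for Lum, 1.77 for Dcn and -0.87 for Postn (adjusted p = 0.995 for each from limma, and 0.0086, 0.026 and 0.013 after blocking on the replicate). These differences were of opposite sign within the fibroblast list, and the part of any such cells in the Thy1 values was not tested.

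Glul, the glutamine synthetase of glia, had mean log2 values of 10.28 with Gpc4 and 9.89 in Alone (difference 0.40, adjusted p = 0.56 from limma). Onecut1 and Calb1, found in horizontal cells and also in some RGCs, had log2 differences of -0.42 and -0.31 for Gpc4 against Alone, and neither passed. Eomes, a transcription factor of a subset of RGCs, had a log2 difference of 0.47 between culture 2 and culture 1 (adjusted p = 0.16 from limma), the largest in size among the brighter RGC transcription factor genes in that comparison.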
